A study of Mus musculus with 4 samples.

Results

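The 8 genes described here encode the purinergic receptors P2Y12, P2Y13, P2Y6, P2X4 and P2X7, the related receptor GPR34, the adenosine receptor A3 and the ectonucleotidase CD39. They were taken by name (P2ry12, P2ry13, P2ry6, P2rx4, P2rx7, Gpr34, Entpd1 and Adora3), and all 8 were found among the 21044 genes with deposited FPKM values. Microglia were isolated at postnatal day 7 from the corpus callosum, the main white matter tract between the hemispheres, and their RNA was sequenced in 4 libraries. The 2 WT libraries came from Lag3fl/fl mice with the genotype label wt, which carry the floxed allele of Lag3, an inhibitory immune receptor, and no named driver. The 2 cKO libraries came from Lag3cKO-Cx3 mice with the genotype label ko. No Cre line, site of recombination or pooling of animals was stated, and these stand as not given in the sources used here. P-values therefore measure the spread between these libraries, which may be technical. The study asked what LAG3 does in microglia of early white matter, and the question here is where this receptor set stood in that comparison.

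Extracellular nucleotides released by active or damaged cells are sensed by microglia through P2X and P2Y receptors. P2X receptors are ATP-gated cation channels, and P2Y receptors are coupled to G proteins. P2Y12 binds ADP and directs the movement of microglial processes toward a source of nucleotides, P2Y6 binds UDP and promotes phagocytosis, and P2X7 opens at high ATP and leads to release of interleukin-1 beta. CD39 on the cell surface hydrolyses ATP and ADP to AMP, from which other enzymes make adenosine. GPR34 belongs to the P2Y12-like group of receptors and responds to lysophosphatidylserine.

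P2ry12 (ENSMUSG00000036353) lies on chromosome 3 from 59216272 to 59262871 on the minus strand in GRCm38, and P2ry13 (ENSMUSG00000036362) lies 5389 bases beyond its far end, from 59207892 to 59210882 on the same strand. Adora3 (ENSMUSG00000000562) is on the same chromosome, from 105870858 to 105908926 on the plus strand. P2rx7 (ENSMUSG00000029468) and P2rx4 (ENSMUSG00000029470) are neighbours on chromosome 5, from 122643911 to 122691432 and from 122707544 to 122729738, both on the plus strand and 16111 bases apart. P2ry6 (ENSMUSG00000048779) lies on chromosome 7 from 100937630 to 100974649 on the minus strand, Gpr34 (ENSMUSG00000040229) on chromosome X from 13632089 to 13640858 on the plus strand, and Entpd1 (ENSMUSG00000048120) on chromosome 19 from 40612366 to 40741602 on the plus strand. The exons of Adora3 share 779 bases, 20.9% of their length, with Tmigd3 on the same strand. Its counts are therefore uncertain by an unknown part. P2ry12 shares 9 exon bases with Med12l on the opposite strand, with the strand setting of the counting not given in the sources used here, so reads there cannot be told apart.

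The sequences just upstream of the start of P2ry12, P2ry13 and Entpd1 are shown because these 3 genes were the members with the widest gap between the WT libraries. For Entpd1, the start that holds matches is shown of the 2 listed. Each is the 250 bases before the start in RefSeq GRCm38.p6, in lower case, with matches to GAGGAA on either strand in capitals. This hexamer is the core favoured by PU.1, the lineage factor of macrophages and microglia.
P2ry12, chr3:59262986-59263235, minus strand: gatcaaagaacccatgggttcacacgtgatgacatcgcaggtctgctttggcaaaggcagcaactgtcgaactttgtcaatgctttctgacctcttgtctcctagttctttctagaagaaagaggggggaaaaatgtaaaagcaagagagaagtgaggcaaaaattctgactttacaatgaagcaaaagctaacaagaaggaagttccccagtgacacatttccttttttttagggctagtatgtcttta
P2ry13, chr3:59210883-59211132, minus strand: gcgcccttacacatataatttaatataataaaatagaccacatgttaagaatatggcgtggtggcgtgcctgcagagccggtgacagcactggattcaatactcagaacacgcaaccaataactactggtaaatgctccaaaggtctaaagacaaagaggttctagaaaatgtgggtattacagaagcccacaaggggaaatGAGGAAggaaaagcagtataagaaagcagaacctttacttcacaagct
Entpd1, second listed start, chr19:40659520-40659769, plus strand: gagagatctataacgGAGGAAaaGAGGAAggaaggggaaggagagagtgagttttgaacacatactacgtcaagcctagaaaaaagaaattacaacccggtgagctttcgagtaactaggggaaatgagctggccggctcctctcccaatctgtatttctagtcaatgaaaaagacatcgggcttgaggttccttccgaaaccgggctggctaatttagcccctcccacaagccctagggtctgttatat
P2ry13 holds 1 match, whose first base is 48 bases before the start, and the second start of Entpd1 holds 2, at 235 and 227 bases. The window of P2ry12 and that of the first listed start of Entpd1, chr19:40612116-40612365, hold 0, which says only that these letters are not in them. Of 32851 mouse windows of the same length, 23.3% hold GAGGAA. Over the 8 starts listed for 6 members (P2ry12, P2ry13, P2rx4, P2rx7, Entpd1 and Adora3), Adora3 holds 1 further match, 28 bases before its start. The AP-1 site TGANTCA, in 6.75% of all windows, is found at the first start of P2rx7 and that of Adora3. The motifs were searched on both strands, and no match overlaps a match of another motif in the 3 sequences printed. Which start was used in these cells was not measured.

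Total counts ranged from 14645187 to 16770162 per library. Genes with a count numbered 14840 and 15899 in WT replicates 1 and 2, and 15491 and 12787 in cKO replicates 1 and 2. Lag3 was at 386.0 and 681.7 CPM (counts scaled to library size with TMM factors) in WT, and at 35.4 and 17.1 CPM in cKO, so each library followed its label. Cx3cr1, the fractalkine receptor gene, was at 6430 and 6541 CPM in WT and at 3398 and 3028 CPM in cKO. Neither passed edgeR, whereas DESeq2 gave them adjusted p = 1.46e-20 and 4.08e-05. The isolates carried high levels of 11 microglial markers, which summed to 22590 and 24960 CPM in WT and 21770 and 20610 CPM in cKO. Cx3cr1 is 1 of the 11, and its lower level in cKO enters these sums. In the edgeR fit 6 of the 11 were higher in cKO and 5 lower, with a median log2 fold change of 0.03. The label Lag3cKO-Cx3 does not say whether the Cx3cr1 locus was altered. The second cKO library stood apart. Across genes, its log2 CPM values correlated at 0.783 to 0.802 with the other libraries, which correlated at 0.872 to 0.91 with each other. Genes are not independent replicates. Sex-linked transcripts, chosen after their values were seen, also set the second cKO library apart. Its Ddx3y, which is Y-linked, was at 0 CPM, against 89.0 to 106.7 CPM in the others. Its Xist was at 289.8 CPM, against at most 6.95 CPM in the others. In that library 8 neutrophil markers summed to 131.2 CPM, against 7.43 to 17.2 CPM in the others, with Ly6g at 0 in those 3, and 9 astrocyte markers to 483.3 CPM, against 172.4 to 225.0 CPM. Both cKO libraries lay above both WT libraries for 3 of the 8 (Ngp, Cxcr2 and Retnlg) and 5 of the 9. Among genes averaging 5 CPM or more 17.1% did so, a level that some of these markers did not reach. Retnlg had only 2 and 2 counts in WT and 5 and 3 in cKO. The astrocyte marker S100b lay below, at 0.573 and 0.749 CPM in WT and 0.0594 and 0 CPM in cKO. Platelets also carry P2Y12 and mast cells A3: Gp9, the one platelet marker with counts, reached at most 1.86 CPM, and the mast cell markers Cpa3 and Ms4a2 together at most 0.476 CPM, each at 0 in 3 of 4 libraries. The 7 markers of border-associated macrophages summed to 504.5 and 551.1 CPM in WT and 524.8 and 544.5 CPM in cKO. Most of this was Mrc1, at 405.5 to 471.1 CPM. The 5 monocyte markers summed to 84.5 CPM in the second cKO library, against 18.6 to 33.2 CPM in the others. The part of these cells in the members' values was not tested. In bulk RNA, fewer cells of a type and less RNA per cell cannot be told apart.

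Per length, the set spanned from P2ry12 among the most abundant transcripts to P2rx4 and Adora3 at moderate levels. In FPKM, which can be compared between genes, P2ry12 was at 854.0 ± 299.2 (SD, n = 2) in WT and 1237 ± 174.7 (SD, n = 2) in cKO. It ranked 48 and 32 among all 21044 genes in the WT libraries and 28 in both cKO libraries. P2ry13 followed at 418.2 ± 75.3 FPKM (SD, n = 2) in WT and 486.8 ± 25.2 FPKM in cKO. Next came Gpr34 at 391.1 ± 47.2 and 460.9 ± 72.2 FPKM, and the ranges of P2ry13 and Gpr34 overlapped in both groups. P2ry6 stood at 227.5 ± 15.5 FPKM in WT and 250.5 ± 1.35 FPKM in cKO, and Entpd1 at 77.9 ± 16.9 and 104.7 ± 15.3 FPKM. The ion channel genes were lower, with P2rx7 at 30.1 ± 0.18 FPKM in WT and 24.8 ± 3.05 FPKM in cKO, and P2rx4 at 17.2 ± 0.349 and 16.3 ± 2.95 FPKM. Adora3 had the lowest means, at 16.5 ± 0.345 FPKM in WT and 15.8 ± 1.24 FPKM in cKO. Its place below P2rx4 is not settled in either group, since the exons it shares with Tmigd3 leave its level uncertain. The order of the 8 genes was the same in both groups, and only the neighbours P2ry13 and Gpr34, and in cKO also P2rx4 and Adora3, had ranges that overlapped. The plot of levels by library shows this order.

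**Figure D1:**
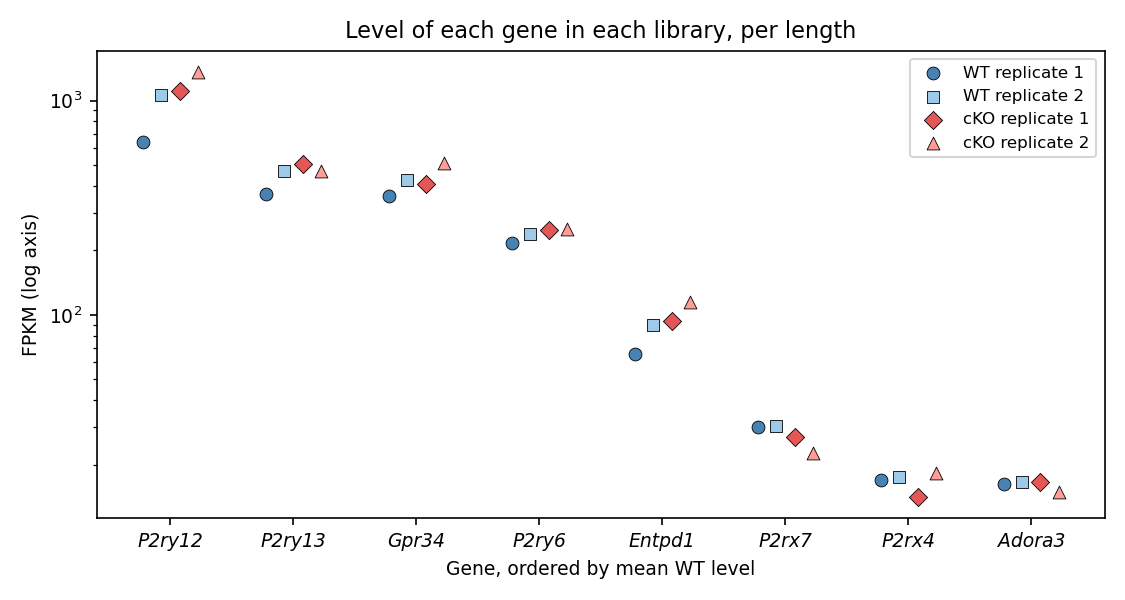
FPKM of the 8 genes (vertical log axis) in each of the 4 libraries, with 1 point per library and genes ordered by their mean WT level. P2ry12 sits highest, between 642.4 and 1361 FPKM, and its lowest point is WT replicate 1. P2rx4 and Adora3 sit lowest, between 14.2 and 18.4 FPKM.

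None of the 8 genes passed a test between cKO and WT, and the fitted fold changes ran from 0.802 for P2rx7 to 1.40 for P2ry12. All 8 passed the filter on low counts, and 0 of 8 had an adjusted p under 0.05 or an unadjusted p under 0.05 in edgeR, where 0% and 4.65% of 13086 genes did. The lowest adjusted p of any gene in edgeR was 0.9997, and Lag3 had this value too. An edgeR adjusted p of 0.9997 therefore does not set a gene apart from the others. DESeq2 called 0 of 8, against 0.387% of 13448 genes, and 0 of 8 had an unadjusted p under 0.05, against 4.86% of 18459 genes. In addition, limma on log2(FPKM + 1) called 0 genes in all, members included. In the edgeR fit 5 were higher and 3 lower in cKO, and their median difference was 0.14 on the log2 scale, where that of all genes tested was -0.03. The 95% interval of the log2 fold change lay within a 2-fold change in either direction for 7 of 8, all but P2ry12. Both cKO libraries lay above both WT libraries for 3 genes, P2ry12, P2ry6 and Entpd1, where 17.1% of 9423 genes averaging 5 CPM or more did so. They lay below for P2rx7 alone, where 19.1% of those genes did so. The other 4 overlapped. With single libraries left out, a count added after seeing the data, 3 members lay above and 2 below without WT replicate 1 (26.7% and 30.9% of genes), and 5 above and 1 below without WT replicate 2 (27.6% and 30.3%). Without cKO replicate 1 there were 5 above and 2 below (39.6% and 43.9%), and without cKO replicate 2 there were 4 above and 2 below (35.5% and 38%). Leaving out a library can only add genes to these counts, so they bear on neither stability nor dependence.

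The ADP receptor P2ry12 had 1651 and 2768 CPM in WT, then 2826 and 3376 CPM in cKO. WT replicate 1 was the low library, and the other 3 lay between 2768 and 3376 CPM, with cKO replicate 1 above WT replicate 2 by only 0.03 on the log2 scale. The fitted log2 fold change was 0.49 ± 0.28 (SE), with a 95% interval from -0.26 to 1.23 (edgeR, adjusted p = 0.9997). Between the WT libraries alone the gap was 0.75 on the log2 scale, more than between the groups. The difference was 0.14 without WT replicate 1 and 0.90 without WT replicate 2. P2ry12 counts ranged from 25936 to 50731, so counting error was small beside this spread.

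Its neighbour P2ry13, a second Gi-coupled ADP receptor, had 931.2 and 1216 CPM in WT and 1272 and 1156 CPM in cKO. WT replicate 1 was again lowest, and WT replicate 2 lay between the cKO libraries. The log2 fold change was 0.18 ± 0.19 (SE), with an interval from -0.31 to 0.67. It was -0.02 without WT replicate 1 and 0.38 without WT replicate 2. The UDP receptor P2ry6 was the steadiest of the set, at 631.0 and 702.5 CPM in WT and 718.1 and 707.4 CPM in cKO. Its cKO libraries lay above both WT libraries, but by as little as 0.01 on the log2 scale. Its log2 fold change of 0.10 had the narrowest interval, from -0.29 to 0.48. It was 0.001 without WT replicate 1 and 0.17 without WT replicate 2.

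Gpr34 had 754.6 and 904.9 CPM in WT and 853.8 and 1043 CPM in cKO. The groups overlapped, since cKO replicate 1 lay between the WT libraries. Its log2 fold change was 0.19 ± 0.18 (SE), with an interval from -0.29 to 0.68, and 0.04 without cKO replicate 2. Gpr34 is X-linked, and the libraries were not matched in sex-linked transcripts. Xist, chosen after its values were seen, was at 0 in both WT libraries and at 6.95 and 289.8 CPM in cKO replicates 1 and 2. The Y-linked Ddx3y, likewise chosen, was at 94.5, 89.0, 106.7 and 0 CPM in the same order. Their part in the values of Gpr34 and of the other members was not tested.

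Entpd1, which encodes CD39, had 371.5 and 511.5 CPM in WT and 522.0 and 628.2 CPM in cKO. It followed the order of P2ry12 over the libraries, with WT replicate 1 lowest, WT replicate 2 and cKO replicate 1 close together and cKO replicate 2 highest. The log2 fold change was 0.38 ± 0.22 (SE), with an interval from -0.21 to 0.97 (edgeR, adjusted p = 0.9997). It was 0.15 without WT replicate 1 and 0.63 without WT replicate 2. The WT libraries differed by 0.46 on the log2 scale, again more than the groups.

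P2rx7 was the member lower in both cKO libraries, with 180.6 and 184.1 CPM in WT and 160.5 and 131.9 CPM in cKO. The WT libraries lay within 0.03 of each other on the log2 scale, and the cKO libraries 0.28 apart. The log2 fold change was -0.32 ± 0.20 (SE), with an interval from -0.83 to 0.19 (edgeR, adjusted p = 0.9997), and it was -0.19 without cKO replicate 2. P2rx4, the other ATP-gated channel at the same locus, had 120.2 and 125.0 CPM in WT and 99.4 and 125.8 CPM in cKO. Here cKO replicate 1 was low and cKO replicate 2 was just above both WT libraries, so the groups overlapped. Its log2 fold change was -0.12 (interval -0.69 to 0.45), and 0.03 without cKO replicate 1. Adora3 had 61.0 and 63.5 CPM in WT and 62.1 and 54.3 CPM in cKO, with cKO replicate 2 lowest and the other 3 within a narrow band. Its log2 fold change was -0.10 (interval -0.75 to 0.55), and -0.007 without cKO replicate 2.

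**Figure D2:**
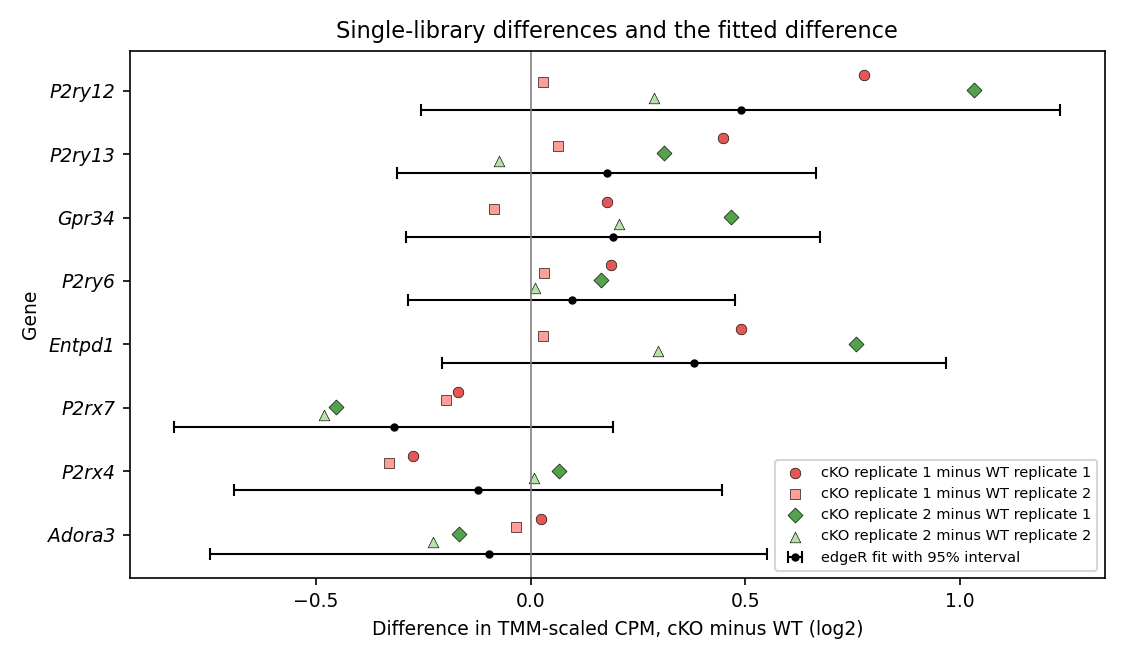
Differences in TMM-scaled CPM on the log2 scale (horizontal axis) for each gene (rows). Coloured points give each cKO library minus each WT library, and black points with bars give the edgeR fit with its 95% interval. The points of P2ry12 run from 0.03 to 1.03, P2rx7 has all 4 points below 0, and every interval crosses 0.

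WT replicate 1 was the lowest of the 4 libraries for 5 of 8 members, P2ry12, P2ry13, P2ry6, Gpr34 and Entpd1, where 19.4% of the 9423 genes had it lowest. The second cKO library was highest for 4 of 8, P2ry12, P2rx4, Gpr34 and Entpd1, where 34.6% of genes had it highest. The 2 WT libraries differed by more than the fitted group difference for 5 of 8 members, and the 2 cKO libraries for 3 of 8. A gap between single libraries is noisier than a difference fitted over 2 libraries per group. The share of all genes was not computed, so these counts show no unusual spread of the members. Between the cKO libraries the members' median absolute difference was 0.26 on the log2 scale, where it was 0.58 for all genes averaging 5 CPM or more. Between the WT libraries it was 0.21 for the members and 0.28 for all genes. Both cKO libraries lay above both WT libraries for 3 of the 11 microglial markers (Tmem119, Aif1 and Selplg), below for 3 (Cx3cr1, Sall1 and Trem2) and overlapped WT for 5. Of all genes averaging 5 CPM or more, 17.1% lay above and 19.1% below. The smallest gaps were 0.011 for Aif1 and -0.035 for Trem2 on the log2 scale. Of the 11 markers, Tmem119 and Selplg, named after their values were seen, were at 380.1 and 207.8 CPM in WT replicate 1, 539.8 and 246.9 CPM in WT replicate 2, 771.7 and 327.1 CPM in cKO replicate 1, and 1170 and 573.2 CPM in cKO replicate 2. They followed the order of P2ry12 over the 4 libraries, whereas Csf1r did not, at 7788 and 9009 CPM in WT and 8979 and 7413 CPM in cKO. The part of neutrophil, astrocyte and other markers in these values was not tested.

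**Figure D3:**
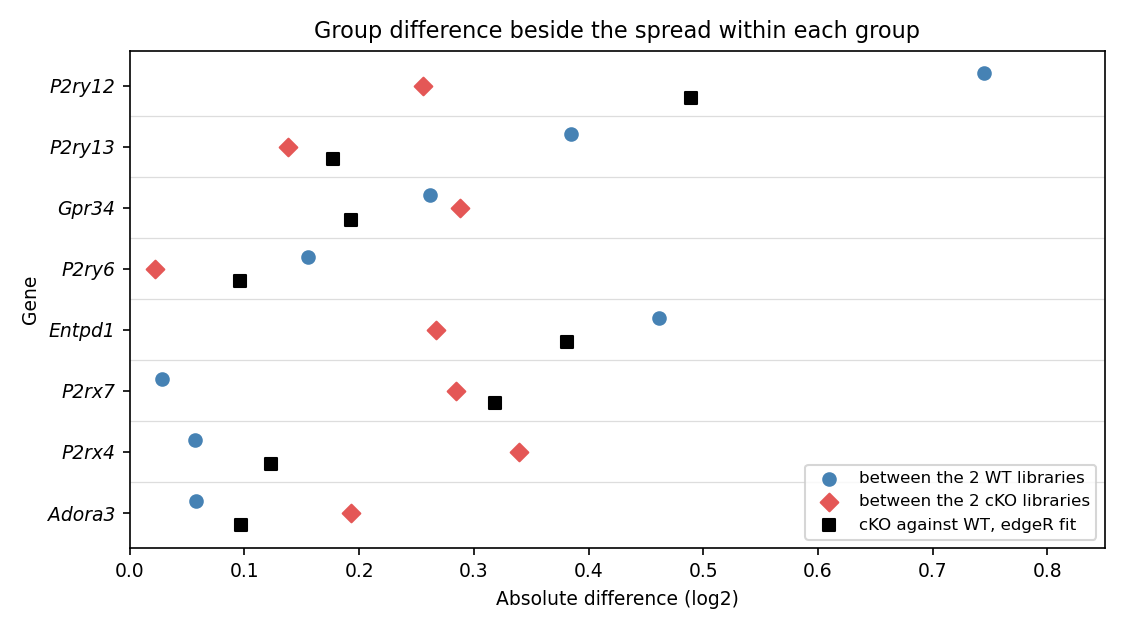
Absolute log2 differences (horizontal axis) for each gene (rows): between the 2 WT libraries (circles), between the 2 cKO libraries (diamonds) and between the groups in the edgeR fit (squares). For P2ry12 the circle at 0.75 lies beyond the square at 0.49, and for P2rx7 the square at 0.32 lies beyond both other points.

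Among the members, the closest profiles over the 4 libraries were those of P2ry13 and P2ry6, with a root mean square distance of 0.102 between log2(CPM + 1) values centred on each gene's mean. P2rx7 and Adora3 followed at 0.118, P2ry6 and Adora3 at 0.120, P2ry12 and Entpd1 at 0.122 and Gpr34 and Entpd1 at 0.123. P2ry12 and P2rx7 were farthest apart, at 0.532. Of 6003 other named genes averaging 20 CPM or more, 29 lay closer to P2ry12 than Entpd1, at rank 30, whereas P2ry12 was at rank 123 from Entpd1. P2ry6 was at rank 152 from P2ry13 and P2ry13 at rank 377 from P2ry6, and Adora3 was at rank 371 from P2rx7 and P2rx7 at rank 572 from Adora3. The nearest to P2ry12 were Sugp1, Hdac6 and Rnf185, at 0.032 to 0.0491. The nearest to P2rx7 were Gpi1, Decr2 and Vps26a, at 0.0159 to 0.0217, and the nearest to Entpd1 were Stk38, Pcnt and Stambpl1, at 0.0208 to 0.0314. For P2ry13 they were Ccdc94, Ddx18 and Ddx54, and for P2rx4 Tomm40, Dad1 and Tifa. For Gpr34 they were Tia1, Slc16a6 and Rbmxl1, and for Adora3 Rassf2, Btf3l4 and Ptp4a1. With 4 libraries these distances are descriptions.

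The authors' deposited tables set each cKO library against each WT library, so tables that share a library are not independent. Their called genes all had a log2 difference of at least 1.000 in size and p of at most 0.05, with no replicate. Of 32 member entries, 27 had p under 0.05 in the authors' deposited tables, where the share of all genes was 73.6%, 70.8%, 82.8% and 82.6% by table. Only 1 was called, P2ry12 as higher in cKO replicate 2 against WT replicate 1, with a fold change of 2.12 in the authors' deposited table, where 18.1% of genes were called higher. The share called higher was 20.3%, 17.2% and 17.1% for the other pairs, and the share called lower was 15.8%, 17.6%, 28.7% and 31.7% over all pairs, with 0 members among them. Against these, P2ry12 had fold changes of 1.73, 1.04 and 1.28 in the authors' deposited tables for the other pairs. P2ry12, P2ry6 and Entpd1 lay on the higher side in each of the 4 tables the authors deposited, P2rx7 on the lower side in each, and the other members changed direction between tables. No member was called in all 4, where 1.62% of 18459 genes were called higher and 3.75% lower.

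The wider pathway was described with 57 further genes, of which 46 were in the FPKM table and 37 averaged 1 CPM or more. Of the 36 that could be tested, edgeR called 0 and DESeq2 called 0, against 0% and 0.387% of all genes, and 1 had an unadjusted p under 0.05 in edgeR, against 4.65%. The fitted direction was higher in cKO for 20 and lower for 16, and the median difference was 0.06 on the log2 scale. Both cKO libraries lay above both WT libraries for 9 of the 37, and below for 8, against 17.1% and 19.1% of genes averaging 5 CPM or more. The plot by role shows these genes beside the 8 members.

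Among the other receptors, P2rx1, a channel better known from platelets, was at 15.8 FPKM on average, close to P2rx4 at 16.7 FPKM. P2rx1 had 35.0 and 42.5 CPM in WT and 33.0 and 55.0 CPM in cKO, so its groups overlapped. P2rx6 was at 3.76 and 3.88 CPM in WT and 7.61 and 17.0 CPM in cKO (log2 fold change 1.69 ± 0.77, SE, edgeR adjusted p = 0.9997), and its log2 fold change was 0.99 without cKO replicate 2. P2ry2, a receptor of ATP and UTP, and P2ry14, a receptor of UDP-glucose, were at no more than 5.72 and 2.16 CPM in any library. P2ry10b, a lysophosphatidylserine receptor gene, was at 10.3 and 29.8 CPM in WT and 23.0 and 8.19 CPM in cKO. Of the lipases that control this lipid, Abhd12 was at 1284 and 1479 CPM in WT and 1255 and 1089 CPM in cKO, with both cKO libraries below, and Abhd16a overlapped, at 57.1 and 43.4 CPM in WT and 35.3 and 43.7 CPM in cKO. Of the adenosine receptor genes with counts, Adora3 alone had some in every library. Adora1 had 0 counts in 2 libraries and 5.06 CPM in cKO replicate 2, and Adora2a was at 1.78 CPM in WT replicate 1 and at 0 in the other 3, where 3 counts, the limit that a count of 0 allows, correspond to 0.178 to 0.204 CPM. That limit covers counting error only.

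Of the enzymes on the nucleotide path, Entpd1 was by far the highest, at 91.3 FPKM on average. Nt5e, which encodes CD73 and turns AMP into adenosine, had 0 counts in 3 libraries and 0.333 CPM in cKO replicate 2. Entpd2 was at no more than 0.613 CPM. Enpp1, which hydrolyses ATP to AMP, was at 62.7 and 69.6 CPM in WT and 78.0 and 30.5 CPM in cKO, with cKO replicate 2 the low library. Cd38, an NAD-consuming enzyme, lay between 13.5 and 20.4 CPM. For adenosine itself, the kinase gene Adk was below WT in both cKO libraries, at 75.4 and 59.5 CPM in WT and 50.7 and 42.2 CPM in cKO (log2 fold change -0.54 ± 0.28, SE, edgeR adjusted p = 0.9997). The phosphorylase gene Pnp was above, at 114.4 and 112.6 CPM in WT and 128.0 and 212.0 CPM in cKO. Its log2 fold change was 0.58, and 0.89 and 0.17 without cKO replicates 1 and 2. The transporter gene Slc29a2 and the deaminase gene Ada were at no more than 15.2 and 9.40 CPM in any library. Other transporter genes were higher. Slc29a1 was at 334.0 and 393.7 CPM in WT and 301.5 and 410.7 CPM in cKO. Slc29a3 was at 324.4 and 361.9 CPM in WT and 472.9 and 252.1 CPM in cKO, and both overlapped.

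In the group of nucleotide release, the groups did not overlap for any of the 5 genes averaging 1 CPM or more, 2 above and 3 below, where 36.2% of genes averaging 5 CPM or more did not overlap. Gja1, which encodes connexin 43 and is abundant in astrocytes, was at 5.73 and 10.7 CPM in WT and 13.9 and 40.9 CPM in cKO. Its log2 fold change was 1.74 (standard error 0.73), and 2.31 and 0.76 without cKO replicates 1 and 2. The sum of 9 astrocyte markers was also highest in cKO replicate 2, at 483.3 CPM, and its part in Gja1 was not tested. Panx1, the pannexin channel gene, was at 3.37 and 6.06 CPM in WT and 7.67 and 12.5 CPM in cKO. Slc17a9, the vesicular nucleotide transporter gene, was at 19.7 and 14.5 CPM in WT and 13.1 and 8.05 CPM in cKO. Calhm2, a calcium homeostasis modulator gene, was at 7.76 and 8.24 CPM in WT and at 3.09 and 0 CPM in cKO. That 0 was in cKO replicate 2, the library with the fewest genes counted. None of the 5 passed edgeR.

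Downstream of P2Y12 and P2Y6, all 10 listed genes were measured, and the fitted direction was higher in cKO for 6 and lower for 4. Gna11, a Gq-class subunit, was at 17.2 and 22.7 CPM in WT and 35.0 and 38.1 CPM in cKO (log2 fold change 0.87, standard error 0.36). Plcb3, a phospholipase C gene, was at 42.0 and 55.4 CPM in WT and 25.2 and 32.8 CPM in cKO (log2 fold change -0.75, standard error 0.34). For Plcb2 and Stim1 the differences were 0.20 and -0.35 on the log2 scale. None of these passed edgeR, with adjusted p = 0.9997 for each.

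Downstream of P2X7 and P2X4, 6 of 7 listed genes averaged 1 CPM or more, with 5 fitted higher in cKO while P2rx7 itself was fitted lower. Il1b, the cytokine gene whose product P2X7 helps release, had 7.07 and 10.01 CPM in WT and 24.5 and 24.6 CPM in cKO (log2 fold change 1.52 ± 0.47, SE). Its unadjusted p in edgeR was 0.0245, the one under 0.05 among the pathway genes in that tool, and it did not pass edgeR (adjusted p = 0.9997) or DESeq2 (adjusted p = 0.442). In DESeq2, Il1b and Gja1 had unadjusted p = 0.0117 and 0.027. Il18 was at 13.7 and 13.3 CPM in WT and 19.2 and 41.7 CPM in cKO. Its log2 fold change was 1.17, and 1.62 and 0.51 without cKO replicates 1 and 2. Casp1 had a log2 fold change of 0.44, and 0.73 and 0.05 without cKO replicates 1 and 2. For this gene cKO replicate 1 was level with WT replicate 2, and cKO replicate 2 was higher. Gsdmd, the pore-forming gasdermin gene, was at 261.0 and 255.3 CPM in WT and 264.0 and 171.0 CPM in cKO, and its groups overlapped. Neutrophil markers, of cells that also express Il1b, summed to 10.6 and 7.43 CPM in WT and 17.2 and 131.2 CPM in cKO, and their part in these values was not tested.

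**Figure D4:**
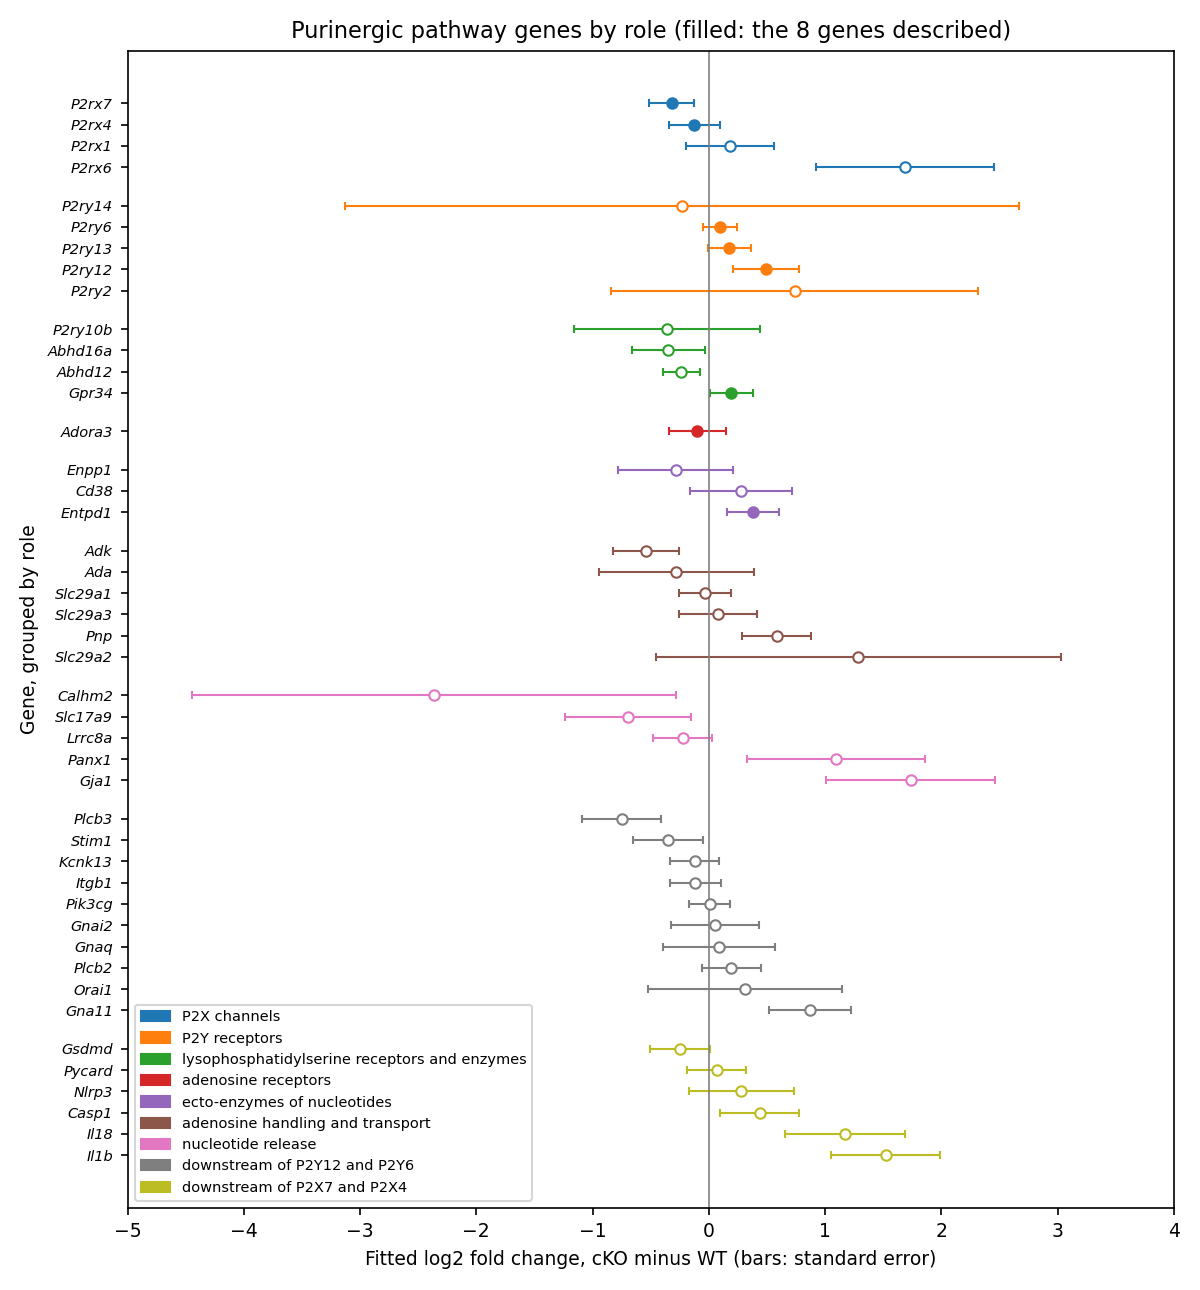
Fitted log2 fold changes of cKO against WT (horizontal axis, bars are standard errors) for 44 pathway genes averaging 1 CPM or more, coloured by role. Filled points are the 8 genes described here, which lie between -0.32 and 0.49, and no gene shown passed edgeR.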

How the data were processed

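Counts per gene were deposited by the authors in 4 tables, each setting 1 cKO against 1 WT library, and FPKM values in another. The same tables give the authors' normalized signal, a linear ratio and its log2. They also hold the authors' p-value, raw and adjusted, from a test not given in the sources used here. The submitters' processing notes list Bowtie2 2.2.3, then TopHat2 2.0.12, HTSeq 0.6.0 and, as build, mm9. Of 21008 gene positions, 92.1% matched GRCm38 in GENCODE M21.

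Counts were joined for 18459 genes. Of 73836 cells, 4315 were recovered from FPKM, none above 4 and none of a member. Libraries of 1 group differed by more than sampling noise (chi-square per degree of freedom 27.8 in WT and 107.5 in cKO). The groups were compared with the quasi-likelihood F test of edgeR 4.0.16 (R 4.3.3, TMM scaling, genes kept by filterByExpr), adjusted over all 13086 genes by Benjamini-Hochberg. The script was tested on simulated data. Standard errors came from the F statistic, and 95% intervals from the t distribution. Alternatives were DESeq2 1.42.0, limma 3.58.1 on log2(FPKM + 1, 0.1 or 0.5), other scalings and filters, a replicate block and leaving out each library.

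Members, lists and motifs were chosen with earlier results of these data known. Named genes are the members, Lag3, Cx3cr1, up to 4 genes per pathway list by smallest unadjusted p at a mean of 1 CPM or more, markers, and the 3 nearest profiles of a member, which for P2ry6 are not reported here. Adora1, Adora2a, Nt5e, Entpd2, Slc29a1 and Slc29a3 were named after their values were seen. Of the pathway genes, 11 are not analysed here.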

Additional observations from a re-analysis of the deposited data

How the results depend on the processing

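All members kept their fitted direction under 9 alternatives other than leaving out a library, and none had an adjusted p under 0.05 under any of them. With the replicate block edgeR called 0 genes, and P2ry12 stood at 0.53 on the log2 scale (unadjusted p = 0.0432, edgeR adjusted p = 1.0). The labels do not say that a replicate number marks a shared origin, and deviations of libraries with the same number were correlated at -0.02 across genes. DESeq2 called 52 genes. The count ran from 0 to 910 when single libraries were left out, with 910 without cKO replicate 1, where the spread of the 1 cKO library left is taken from WT. Of 104 member values under alternatives, 2 turned. P2ry13 was -0.023 without WT replicate 1 and P2rx4 0.029 without cKO replicate 1. P2ry13 ran from -0.02 to 0.38 and P2rx4 from -0.31 to 0.03 over leaving out each library.

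Leaving out each library, an alternative chosen after seeing the data, gave 3 to 5 members above WT, and 1 to 2 below, counts that can only grow when a library is removed. Of the pathway genes named by rule, the only ones compared across settings, those that turned over leaving out each library were P2rx1 (-0.24 to 0.50), P2ry2 (-1.23 to 2.54), P2ry14 (-7.05 to 6.86), P2ry10b (-1.30 to 0.60), Enpp1 (-1.13 to 0.23), Slc29a2 (-3.13 to 2.25, and -0.18 with the replicate block) and Gsdmd (-0.60 to 0.029). P2ry14 had 34 and 0 counts in WT and 31 and 0 in cKO, so leaving out a library can leave a group with none. For the others the cause was not tested. The member with the fewest counts, Adora3, had 816 in 1 library, a relative counting error of 3.5%.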

Other observations

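Of the annotated genes that overlap the span of a member, 5 were read beside it, chosen after their values were seen. Cask, on the strand opposite Gpr34 and sharing no exon base with it, was at 12.1 and 26.8 CPM in WT and 27.5 and 37.6 CPM in cKO (log2 fold change 0.74 ± 0.53, SE). Gm44545, a tentative transcript model opposite P2ry6, was at 1.34 and 3.54 CPM in WT and 8.02 and 10.5 CPM in cKO (log2 fold change 1.92 ± 0.92, SE). Tmigd3, which shares exon sequence with Adora3, was at 0.764 and 1.23 CPM in WT and 2.97 and 2.40 CPM in cKO. Both cKO libraries lay above both WT libraries for these 3 genes, where 17.1% of genes averaging 5 CPM or more did so. Tmigd3 did not reach that level in any library. Both cKO libraries lay below both WT libraries for Gm8783, a processed pseudogene within Entpd1, with 9 and 15 counts in WT and 6 and 4 in cKO. Of genes averaging 5 CPM or more, 19.1% lay below. Since these genes were chosen by their values, the shares are given for scale only. Med12l, opposite P2ry12 and P2ry13, was at 48.0 and 53.8 CPM in WT and 82.9 and 46.7 CPM in cKO, so its groups overlapped. Cask, Gm44545, Tmigd3 and Med12l did not pass edgeR, with adjusted p = 0.9997 for each.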
